A study of Mus musculus with 6 samples.

Results

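The 9 genes described here are markers of the red cell lineage: the alpha-type globins Hba-a1, Hba-a2 and Hba-x, the beta-type globins Hbb-bh1 and Hbb-y, and the erythroid genes Klf1, Epor, Alas2 and Slc4a1. They were taken by gene symbol, not by a cut on a measured value, from the 24062 genes of the count tables. Earlier results of these data were known when they were chosen. RNA was sequenced from 6 libraries of cells sorted from the aorta-gonad-mesonephros (AGM) region, the embryonic tissue in which hematopoietic stem cells arise, of C57BL/6JOlaHsd mouse embryos at embryonic day (E) 10.5. All embryos were heterozygous for the Gata2Venus (G2V) reporter, in which the fluorescent protein Venus is translated from the Gata2 transcript behind an internal ribosome entry site, so that no wild-type library serves as a control. Both groups were CD31+ckit+ cells, and were separated by the Venus gate: 3 libraries came from cells of intermediate Venus signal (CD31+ckit+Vmed) and 3 from cells of high Venus signal (CD31+ckit+Vhigh). CD31 is an adhesion molecule of endothelial and early hematopoietic cells, and ckit is the receptor for stem cell factor. The comparison asks how far the red cell program differs between AGM hematopoietic cells with different levels of the Gata2 reporter. The cells are a sorted population rather than a single cell type, and the sources used here do not give the number of embryos behind each library.

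Hemoglobin is a tetramer of alpha-type and beta-type globin chains with bound heme. In the mouse, the first red cells, made in the yolk sac, carry embryonic chains: zeta (Hba-x) of the alpha type, and epsilon-y (Hbb-y) and beta-h1 (Hbb-bh1) of the beta type. Hba-a1 and Hba-a2 are used in these first cells too, and become the alpha chains of the definitive red cells of fetal liver and bone marrow, which pair them with the adult beta chains Hbb-bs and Hbb-bt; the change from embryonic to adult chains is known as globin switching. Klf1 is a zinc finger factor that binds CACCC boxes, is required for adult beta-globin transcription and activates many other red cell genes. Epor is the receptor for erythropoietin, Alas2 is the red cell form of the enzyme for the first step of heme synthesis, and Slc4a1 (band 3) is the chloride-bicarbonate exchanger of the red cell membrane, made late in maturation.

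Sequences of 2 kinds bear on how these genes were counted and on what they share. The first is the coding sequence, shown because counts of reads that align to only one place depend on how far the globin copies differ. The stretch below lies in the second coding exon, is 50 bases long, which is the read length, and is written 5′ to 3′ on the coding strand. Capitals mark bases that differ from the first sequence of the same family. On GRCm38 the alpha-type stretches lie at chr11:32283924-32283973 (Hba-a1), chr11:32296741-32296790 (Hba-a2) and chr11:32277569-32277618 (Hba-x), all on the plus strand. The beta-type stretches lie at chr7:103827621-103827670 (Hbb-bs), chr7:103813612-103813661 (Hbb-bt), chr7:103852921-103852970 (Hbb-y) and chr7:103842864-103842913 (Hbb-bh1), all on the minus strand.
Hba-a1: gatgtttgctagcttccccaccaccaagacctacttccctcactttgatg
Hba-a2: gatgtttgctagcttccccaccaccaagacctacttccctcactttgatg
Hba-x: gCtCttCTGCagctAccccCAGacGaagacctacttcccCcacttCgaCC
Hbb-bs: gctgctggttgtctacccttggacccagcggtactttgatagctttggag
Hbb-bt: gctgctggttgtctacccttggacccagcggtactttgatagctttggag
Hbb-y: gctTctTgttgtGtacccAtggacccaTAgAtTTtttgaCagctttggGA
Hbb-bh1: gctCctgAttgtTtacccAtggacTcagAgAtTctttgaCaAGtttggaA

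The stretches of Hba-a1 and Hba-a2 are identical, as are those of the adult beta genes Hbb-bs and Hbb-bt, whereas the embryonic genes stand apart. Hba-x differs from Hba-a1 at 15 of the 50 bases, and Hbb-y and Hbb-bh1 each differ from Hbb-bs at 12. Over the whole coding sequence, without the stop codon, Hba-a1 and Hba-a2 differ at 1 of 426 bases and Hbb-bs and Hbb-bt at 1 of 441, while Hba-a1 and Hba-x share 61.7% of aligned bases and Hbb-y and Hbb-bh1 share 76.4%.

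The second kind is the promoter, shown for the members whose levels differed in the same direction in all 3 same-numbered pairs of libraries (Hba-x, Hbb-y and Klf1). Each run is the 250 bases before the RefSeq transcript start on GRCm38.p6, 5′ to 3′ on the strand of the gene: chr11:32276350-32276599 (plus) for Hba-x, chr7:103853208-103853457 (minus) for Hbb-y and chr8:84901732-84901981 (plus) for Klf1. Capitals mark the GATA motif, searched as GATA after an A or T and before an A or G, and the CACCC motif, both on either strand. No match of one overlaps a match of the other. GENCODE starts these genes before the RefSeq start, at 32276400 for Hba-x, 103853216 for Hbb-y and 84901928 for Klf1. The last bases of each run, and most of the run of Hba-x, are thus inside the GENCODE gene.
Hba-x: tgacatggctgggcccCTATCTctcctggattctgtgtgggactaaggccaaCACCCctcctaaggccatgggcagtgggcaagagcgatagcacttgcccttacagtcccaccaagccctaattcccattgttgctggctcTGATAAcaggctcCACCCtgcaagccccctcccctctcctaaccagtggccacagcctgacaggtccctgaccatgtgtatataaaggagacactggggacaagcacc
Hbb-y: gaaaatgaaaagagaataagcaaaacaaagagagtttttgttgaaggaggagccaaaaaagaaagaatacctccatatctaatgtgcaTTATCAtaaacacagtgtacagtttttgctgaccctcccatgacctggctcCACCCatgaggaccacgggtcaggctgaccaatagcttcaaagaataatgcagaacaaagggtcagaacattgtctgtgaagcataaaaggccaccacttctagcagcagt
Klf1: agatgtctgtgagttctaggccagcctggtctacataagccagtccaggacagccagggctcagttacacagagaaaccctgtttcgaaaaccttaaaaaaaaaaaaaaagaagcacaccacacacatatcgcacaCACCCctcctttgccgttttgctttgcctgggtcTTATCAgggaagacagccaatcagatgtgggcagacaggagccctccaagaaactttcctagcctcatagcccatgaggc

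The Hba-x promoter holds a GATA match that starts 234 and another 108 bases before the transcript start, each followed by a CACCC match, at 198 and 95 bases. In Hbb-y the GATA match starts 162 bases and the CACCC match 111 bases before the start. In Klf1 the order is the other way round, with CACCC at 114 and GATA at 80 bases. Promoters of 7 of the 9 members were in the RefSeq table (not those of Hbb-bh1 and Slc4a1), and all 7 held both motifs. Those of Hba-a1 and Hba-a2 are shifted copies of the same sequence, with GATA at 183 and 186 bases. The 7 are therefore not all separate instances. Among all 32851 promoters of the table, 26.5% held the GATA motif, 52% the CACCC motif and 11.8% both. A match describes letters in this window and shows no binding.

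The 6 libraries held between 8296831 and 12035206 counts assigned to genes. The 12688 genes with enough counts were tested with edgeR's quasi-likelihood test, and differences are given as log2 of Vhigh over Vmed. Levels are given as CPM, counts divided by library sizes that were scaled by TMM, and levels of different genes are compared as RPKM, which is CPM per kilobase of exon sequence. Libraries of one fraction varied widely: the common biological coefficient of variation was 1.16, and CD31+ckit+Vhigh replicate 1 stood apart, with under 3 counts at 31.5% of the tested genes against 1.05% to 9.59% in the other 5. Where the difference of a member rests on that library it is also given without it. Correlations were taken over all 6 libraries only. Of the genes used in the sort, Kit had a log2 difference of 1.91 (SE 0.57), without overlap of the libraries. Pecam1, the gene of CD31, was at -0.52 (SE 0.62) and Gata2 at 0.78 (SE 0.73), both with overlap, and all 3 had an adjusted p of 1.00 in edgeR. Which embryos went into each library is not given, and p-values measure only the spread between these samples, which may be technical in part.

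The globin counts came from the embryonic genes. Hbb-bh1 was the most abundant member per unit of length, with a mean of 191 RPKM over the 6 libraries, followed by Hbb-y at 178 and Hba-x at 34.2. Klf1 had a mean of 8.34 RPKM, Epor 2.38, Alas2 0.384 and Slc4a1 0.134. The order of the 2 beta-type genes does not hold beyond their spread, since Hbb-y was the higher in 2 of the 6 libraries. Hba-x was below both in every library, but its order against Klf1 did not hold, as Klf1 was the higher in Vhigh replicates 1 and 3. Hba-a1 and Hba-a2 had 0 counts in all 6 libraries. A limit of 3 counts is 0.249 to 0.362 CPM, depending on the library, but it holds only for reads that could be counted. It sets no upper bound on the RNA of these genes. The adult beta genes, listed as Hbb-bs, Hbb-bt, Hbb-b1 and Hbb-b2, had 0 counts throughout as well.

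The 0 counts of the adult genes cannot be read as absence of the RNA. Of the 650 read-length windows along the Hba-a1 transcripts, 439 (67.5%) occur in another gene too, as do 439 of 505 (86.9%) in Hba-a2, and a read from such a window aligns to more than one place. Still, 211 windows of Hba-a1, 66 of Hba-a2, 282 of Hbb-bs and 273 of Hbb-bt are found in no other gene. No window of Hba-x, Hbb-bh1, Hbb-y, Klf1, Epor or Slc4a1 is shared, and in Alas2 275 of 2034 (13.5%) are shared, 263 of them with the overlapping gene Apex2. Which gene models the authors counted on, and whether overlapping globin entries were set aside as ambiguous, is not given in the sources used here.

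**Figure D1:**
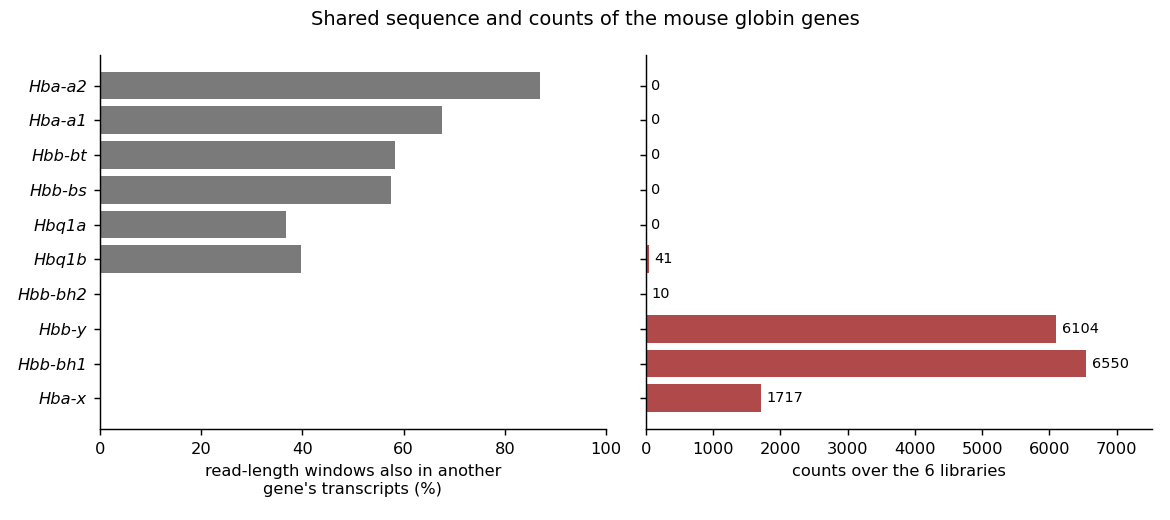
For 10 mouse globin genes, the share of read-length windows that also occur in the transcripts of another gene (left, x axis, percent) and the counts summed over the 6 libraries (right, x axis). The embryonic genes Hbb-y, Hbb-bh1 and Hba-x have 0 shared windows and 6104, 6550 and 1717 counts, whereas Hba-a1, Hba-a2, Hbb-bs and Hbb-bt have 57.5% to 86.9% shared windows and 0 counts.

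Hba-x, the embryonic alpha-type chain, had the widest difference between the fractions among the 6 members that passed the filter on low counts. The gene lies at chr11:32276400-32278116 (plus strand, GRCm38, GENCODE), in the same cluster as Hba-a1 (chr11:32283511-32284465) and Hba-a2 (chr11:32296489-32297298). It had 650, 532 and 331 counts in Vmed replicates 1, 2 and 3, and 1, 55 and 148 counts in Vhigh replicates 1, 2 and 3. As CPM these were 78.1, 62.4 and 35.1 in Vmed, a mean of 58.5 ± 21.8 (SD, n = 3). In Vhigh they were 0.103, 4.46 and 12.6, and the Vhigh mean was 5.71 ± 6.33 (SD, n = 3). The groups did not overlap, and the lowest Vmed library was above the highest Vhigh library. The fitted log2 difference was -3.35 (SE 1.33), or 10.2-fold more in Vmed, with an unadjusted p of 0.0427 and an adjusted p of 1.00 in edgeR's quasi-likelihood test. An exact permutation test over the libraries (two-sided) gave p = 0.1, the smallest it can give with 3 against 3. Without Vhigh replicate 1, which had a single count, the log2 difference was -2.78. With the replicate number as a block it was -4.27 (SE 1.44), with an unadjusted p of 0.0693 and an adjusted p of 0.987 in edgeR.

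**Figure D2:**
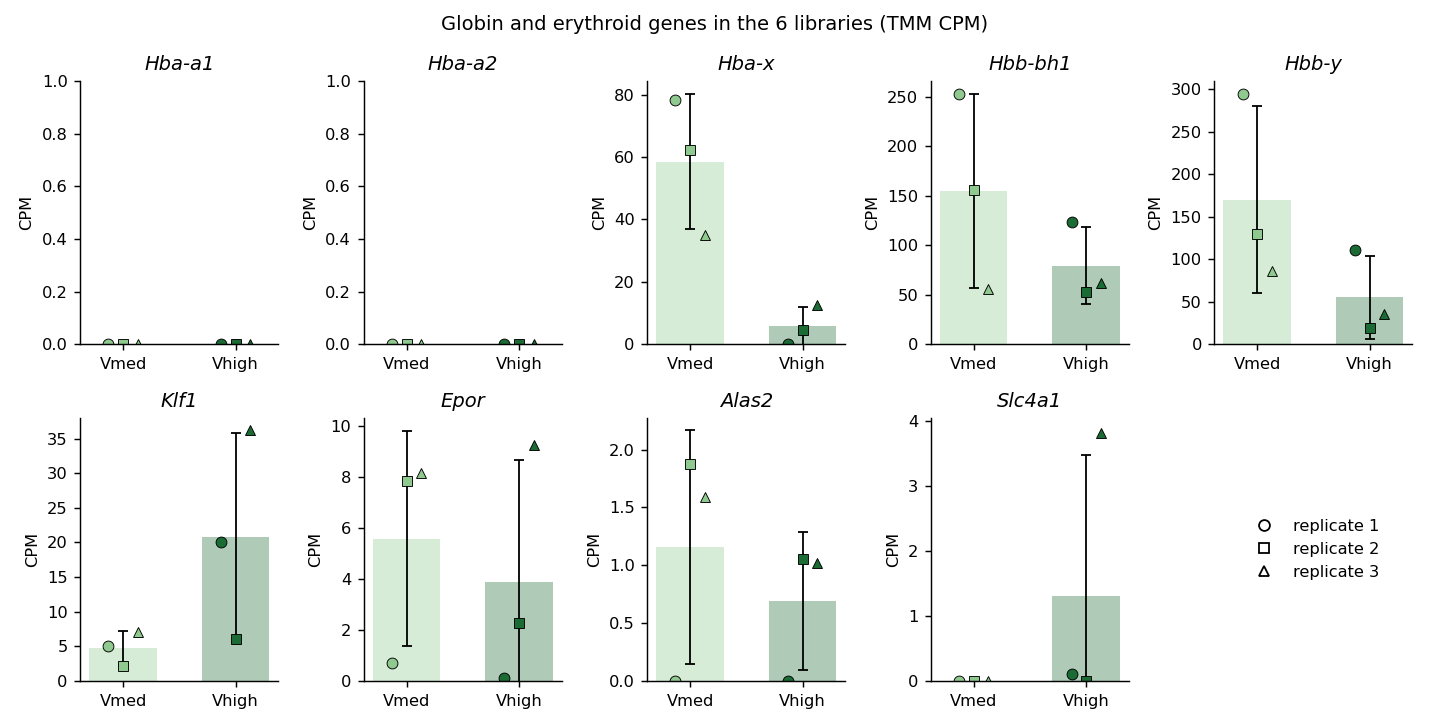
CPM (y axis, linear from 0, with its own scale for each gene) of the 9 members by fraction. Points are libraries, shaped by replicate number, bars are means of 3 libraries and error bars the SD, cut at 0; in Hba-x the Vmed points lie at 35.1 to 78.1 and all Vhigh points at 12.6 or below.

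Hbb-y, the epsilon-y chain (chr7:103851749-103853216, minus strand), had 2456, 1103 and 812 counts in Vmed and 1082, 239 and 412 in Vhigh (replicates 1, 2 and 3). On the CPM scale the Vmed libraries were at 295, 129 and 86.2 and the Vhigh libraries at 111, 19.4 and 35. The fractions overlapped, since Vhigh replicate 1 lay above Vmed replicate 3, but within each same-numbered pair the Vhigh library was the lower. Those pair differences were -1.41, -2.73 and -1.29 on the log2 scale. The fitted difference was -1.63 (SE 0.76), a ratio of 3.09, with an unadjusted p of 0.064 in edgeR, an adjusted p of 1.00, and p = 0.2 in the exact permutation test. With the replicate number as a block the difference was -1.81 (SE 0.44) with an unadjusted p of 0.00861 and an adjusted p of 0.916 in edgeR.

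Hbb-bh1, the beta-h1 chain (chr7:103841637-103843164, minus strand), had 2105, 1329 and 528 counts in Vmed and 1207, 649 and 732 in Vhigh. As CPM the Vmed libraries were at 253, 156 and 56.0 and the Vhigh libraries at 124, 52.6 and 62.2. The spread within Vmed was wider than the distance between the means, and the third pair ran the other way from the first and the second, at 0.15 against -1.03 and -1.56 on the log2 scale. The fitted log2 difference was -0.96 (SE 0.67), with an adjusted p of 1.00 in edgeR and p = 0.3 in the exact permutation test.

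The balance among the embryonic chains was taken as ratios within a library, which do not depend on its depth. Per unit of length, Hbb-y stood at 1.13, 0.804 and 1.49 times Hbb-bh1 in Vmed replicates 1, 2 and 3, and at 0.868, 0.357 and 0.545 times in Vhigh. All 3 pairs had the lower ratio in Vhigh, at log2 differences of -0.38, -1.17 and -1.45, but the fractions overlapped and the exact permutation test gave p = 0.2. The mean log2 ratio was 0.15 ± 0.45 (SD, n = 3) in Vmed and -0.86 ± 0.64 (SD, n = 3) in Vhigh. Hba-x relative to the summed beta-type chains per unit of length was 9.47%, 14.5% and 16.5% in Vmed, and 4.08% and 8.55% in Vhigh replicates 2 and 3. In Vhigh replicate 1 it was 0.029%, a ratio of 0.00029 that rests on 1 Hba-x count, with an exact 95% interval from counting error alone of 7.34e-06 to 0.00162. The Vhigh libraries lay below the Vmed libraries in this ratio, with a mean log2 difference of -3.71 over all libraries and of -1.15 without Vhigh replicate 1. The closest libraries, Vmed replicate 1 and Vhigh replicate 3, were within counting error of each other. Their 95% intervals overlapped, with ratios of 0.0871 to 0.103 and of 0.0716 to 0.102.

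Summed over the globin members, the 3 Vmed libraries had 626, 348 and 177 CPM and the 3 Vhigh libraries 235, 76.5 and 110. The sum was lower in Vhigh within each pair, at log2 differences of -1.42, -2.18 and -0.69, and the fractions overlapped because Vhigh replicate 1 lay above Vmed replicate 3. In bulk samples such as these, fewer cells of a type and less RNA per cell cannot be told apart. Across the 6 libraries, which share depth and the differences between fractions, log2 CPM of Hbb-bh1 and Hbb-y had a Pearson r of 0.878, whereas Hba-x had an r of 0.244 with Hbb-bh1 and 0.335 with Hbb-y. In Vhigh replicate 1 Hba-x had a single count, beside 1207 of Hbb-bh1 and 1082 of Hbb-y, and its r was not taken without that library. All 3 values describe 6 points and were not tested.

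Klf1 had more counts in the Vhigh fraction than in Vmed, the opposite direction from the globins. The gene lies at chr8:84901928-84905291 (plus strand). Its counts were 42, 18 and 67 in Vmed and 196, 74 and 426 in Vhigh (replicates 1, 2 and 3). As CPM the Vmed libraries were at 5.05, 2.11 and 7.11 and the Vhigh libraries at 20.1, 6.00 and 36.2. Within each pair the Vhigh library was the higher, by 1.95, 1.43 and 2.32 on the log2 scale, yet the groups overlapped, since Vhigh replicate 2 lay below Vmed replicate 3. The fitted log2 difference was 2.12 (SE 1.46), a ratio of 4.36, with an unadjusted p of 0.191 and an adjusted p of 1.00 in edgeR. The exact permutation test gave p = 0.2.

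Set against each other within a library, summed globins and Klf1 separated the fractions. Globin CPM per CPM of Klf1 was 124, 165 and 24.9 in Vmed and 11.7, 12.7 and 3.03 in Vhigh, with no overlap. This ratio was formed after both genes had been seen, and is given as a description. Per unit of length, Vhigh replicate 3 had 23.6 RPKM of Klf1 and 13.4 of Hba-x, and Vhigh replicate 1 had 13.1 of Klf1 and 0.109 of Hba-x. The Vmed mean was 3.11 RPKM for Klf1 and 62.4 for Hba-x.

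**Figure D3:**
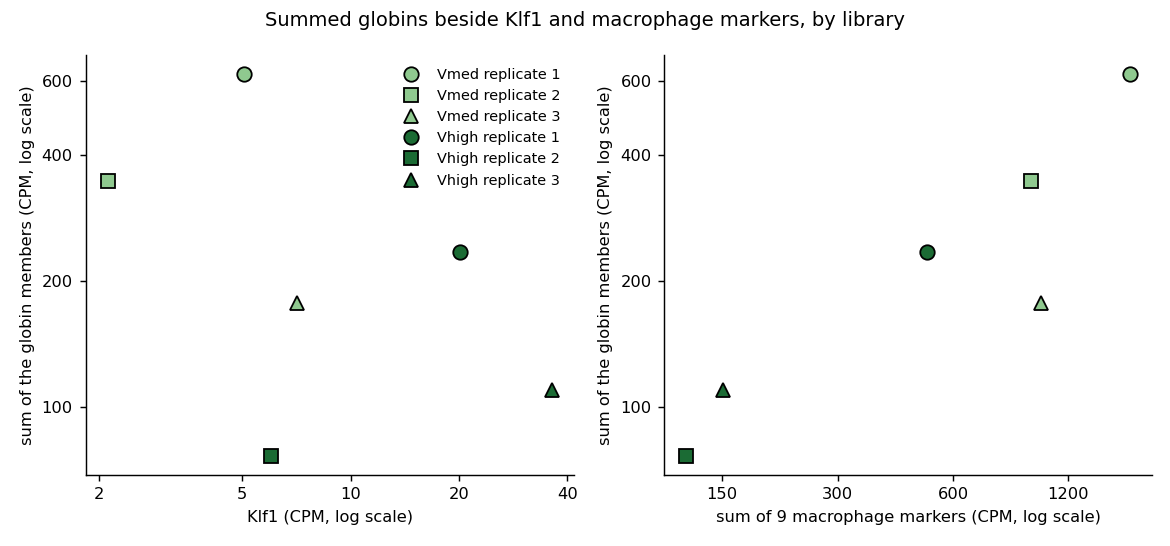
Summed CPM of the globin members (y axis, log scale) against CPM of Klf1 (left, log scale) and against the summed CPM of 9 macrophage markers (right, log scale), 1 point a library. The Vmed libraries lie at 177 to 626 globin CPM with Klf1 at 2.11 to 7.11, and the Vhigh libraries at 76.5 to 235 with Klf1 at 6.00 to 36.2.

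Epor, the erythropoietin receptor (chr9:21958897-21963506, minus strand), had 6, 67 and 77 counts in Vmed and 1, 28 and 109 in Vhigh. The first replicate of each fraction was the lowest, and the fractions overlapped over nearly their whole range. As CPM the Vmed libraries were at 0.721, 7.86 and 8.17 and the Vhigh libraries at 0.103, 2.27 and 9.26. The fitted log2 difference was -0.52 (SE 2.09) with an adjusted p of 1.00 in edgeR, and it changed sign, to 0.05, without Vhigh replicate 1. With a standard error of that size a difference of several fold in either direction would not have been detectable.

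Alas2, the heme synthesis enzyme (chrX:150547375-150570638, plus strand), was close to the limit of counting. It had 0, 16 and 15 counts in Vmed and 0, 13 and 12 in Vhigh, or at most 1.88 CPM in any library. The fitted log2 difference was -0.73 (SE 2.42), with an adjusted p of 1.00 in edgeR. Both first replicates had 0 counts, and the other 4 libraries lay between 1.02 and 1.88 CPM.

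Slc4a1, or band 3 (chr11:102348824-102366203, minus strand) had counts in the Vhigh fraction alone, nearly all of them in 1 library. It had 0 counts in each Vmed library and 1, 0 and 45 in Vhigh replicates 1, 2 and 3, the last being 3.82 CPM. It did not pass the filter on low counts. Without the filter its adjusted p in edgeR was 1, and no fold is given because each Vmed library is at 0. The exact permutation test of its CPM gave p = 0.4.

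Of the 9 members, 6 passed the filter on low counts, Slc4a1, Hba-a1 and Hba-a2 being the others, and 0 of the 6 were called at an adjusted p of 0.05 in edgeR's quasi-likelihood test, as were 0 (0%) of the 12688 genes tested. At an unadjusted p of 0.05, 1 member (Hba-x) and 2.04% of all tested genes were past the threshold. With the replicate number as a block Hbb-y passed it in place of Hba-x, and 528 genes did so in place of 259. DESeq2, the likelihood ratio test and the exact test of edgeR called 51, 21 and 14 genes, with 0 members among them. Of the 6, 1 (Hba-x) was lower in Vhigh without overlap of the libraries, against 5.3% of all tested genes, and 0 were higher without overlap, against 3.64%. In all 3 same-numbered pairs 2 members (Hba-x and Hbb-y) were lower in Vhigh, against 16.5% of all genes, and 1 (Klf1) was higher, against 13.9%. The median log2 difference of the 6 was -0.85, beside -0.02 for all tested genes. At this spread between libraries, a count of 0 does not show that levels were alike.

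**Figure D4:**
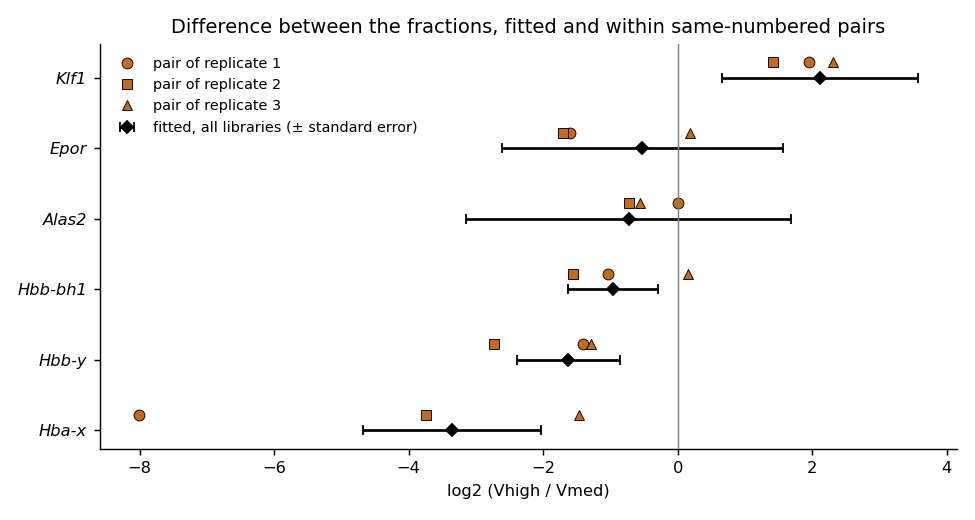
Log2 difference between Vhigh and Vmed (x axis) for the 6 tested members. Black diamonds are the edgeR fit over all 6 libraries with bars of 1 standard error, and orange symbols are the 3 same-numbered pairs; Hba-x runs from -8.02 to -1.47 over the pairs, Hbb-y from -2.73 to -1.29 and Klf1 from 1.43 to 2.32.

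Most other transcription factors listed for the red cell program lay above 0, as Klf1 did and the globins did not. This direction was not particular to them. All 8 stem and progenitor markers, which include the sort genes Kit and Gata2, lay above 0 too, with a median of 1.42. Among all 12688 tested genes, 6201 lay above 0. Of 12 erythroid transcription factors and cofactors, which include Gata1 and Tal1, 10 had a log2 difference above 0 and 2 below, with a median of 0.85. The quasi-likelihood test called 0 of them, and Myb was called by the likelihood ratio and exact tests of edgeR, by DESeq2, and by the quasi-likelihood test without the filter on low counts. Without Vmed replicate 3 the median was 1.54. Of the 12, 4 (Nfe2, Tal1, Gfi1b and Myb) were higher in Vhigh without overlap, as were 3.64% of all tested genes, and the summed level of the 12 was 167 to 420 CPM in Vmed and 455 to 894 CPM in Vhigh. The split of these sums rests on Myb, and without it they overlap. Myb made up 80.05 of the 455 CPM in Vhigh replicate 1 and 6.15 of the 420 CPM in Vmed replicate 3. Nfe2, a leucine zipper subunit that acts at globin regulatory regions, was at 29.7, 19.0 and 11.2 CPM in Vmed and 45.1, 106 and 140 in Vhigh, a log2 difference of 2.28 (SE 0.77). Gfi1b, a repressor needed for red cell and megakaryocyte development, was at 3.6, 38.0 and 26.7 CPM in Vmed and 67.3, 164 and 65.4 in Vhigh, a log2 difference of 2.12 (SE 0.91). The fractions did not overlap in either gene, and neither passed the adjusted threshold in any setting tried. Gata1, the factor that binds the GATA motif in red cell genes, overlapped between fractions, at 15.4, 45.3 and 37.2 CPM in Vmed and 25.1, 76.1 and 39.3 in Vhigh. Lmo2, a bridging protein of the Tal1 complex and the most abundant of the group per unit of length, differed by 0.83 (SE 0.75), and by 1.71 without Vmed replicate 3.

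Among the same 12 genes are factors known for the globin switch, named after their values had been seen. Bcl11a, which represses embryonic beta-type genes in definitive red cells, was at 26.0, 11 and 27.7 CPM in Vmed and 24.2, 111 and 94.4 in Vhigh, a log2 difference of 1.83 (SE 0.87). Vhigh replicate 1 lay within the Vmed range, and the other Vhigh libraries lay above it. Sox6, which represses Hbb-y in definitive cells, was at 2.64, 21.7 and 34.3 CPM in Vmed and 0, 17.6 and 15.7 in Vhigh, a log2 difference of -0.81 (SE 1.85). Their adjusted p in edgeR was 1.00 for both.

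Genes of the later red cell program did not share one direction. Of 8 enzymes of heme synthesis, 3 had a log2 difference above 0 and 5 below, with a median of -0.26, and 1, Cpox, was higher in Vhigh without overlap, beside 3.64% of all tested genes. Alad and Urod, enzymes of the pathway that are among its most abundant transcripts here, differed by 0.46 and 0.34, with standard errors of 0.56 and 0.55. Of 15 genes of the red cell membrane and its skeleton, 10 were tested, 4 above 0 and 6 below, with a median of -0.47, and 2 of these were lower in Vhigh without overlap, beside 5.3% of all tested genes. These were Add2 (adducin), with 1 count in Vhigh replicate 1 and a log2 difference of -2.14 (SE 1.71), and Dmtn (dematin), with a log2 difference of -0.90 (SE 0.98), both actin-binding proteins of the membrane skeleton. Gypc (glycophorin C) and Epb4.1 (protein 4.1), which link skeleton and membrane, differed by 0.75 and 0.55.

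Among 7 genes of iron uptake and transport, 4 had a difference above 0 and 3 below, with a median of 0.27. Tfrc, the transferrin receptor, was at 35.8, 65.9 and 102 CPM in Vmed and at 139, 104 and 128 in Vhigh, higher without overlap although by 0.86 (SE 0.61) on the log2 scale. Abcb10, a mitochondrial transporter, and Slc11a2, the endosomal iron transporter, differed by 1.25 and -0.57. Among 6 cytosolic proteins of red cells, Car2 (carbonic anhydrase) had the widest difference of the 3 most abundant, with 14.5, 123 and 46.4 CPM in Vmed and 680, 373 and 164 in Vhigh. Its log2 difference was 2.73 (SE 0.76), with an unadjusted p of 0.00717 and an adjusted p of 1.00 in edgeR, and an adjusted p of 0.0169 without the filter on low counts. The difference was 2.13 without Vhigh replicate 1, 3.79 without Vmed replicate 2 and 1.68 with replicates 2 and 3 only. Prdx2 and Cat, which remove peroxide, differed by -0.11 and -0.05.

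Of 9 genes downstream of the erythropoietin receptor, 7 had a difference above 0 and 2 below, with a median of 0.41 (1.39 without Vmed replicate 3), whereas Epor itself was at -0.52. Ptpn6, a phosphatase that ends signaling by the receptor, differed by 1.38, the kinase Lyn by 0.41 and the survival protein Bcl2l1 by -0.08. Across all these lists 0 genes were called at an adjusted p of 0.05 by the quasi-likelihood test.

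**Figure D5:**
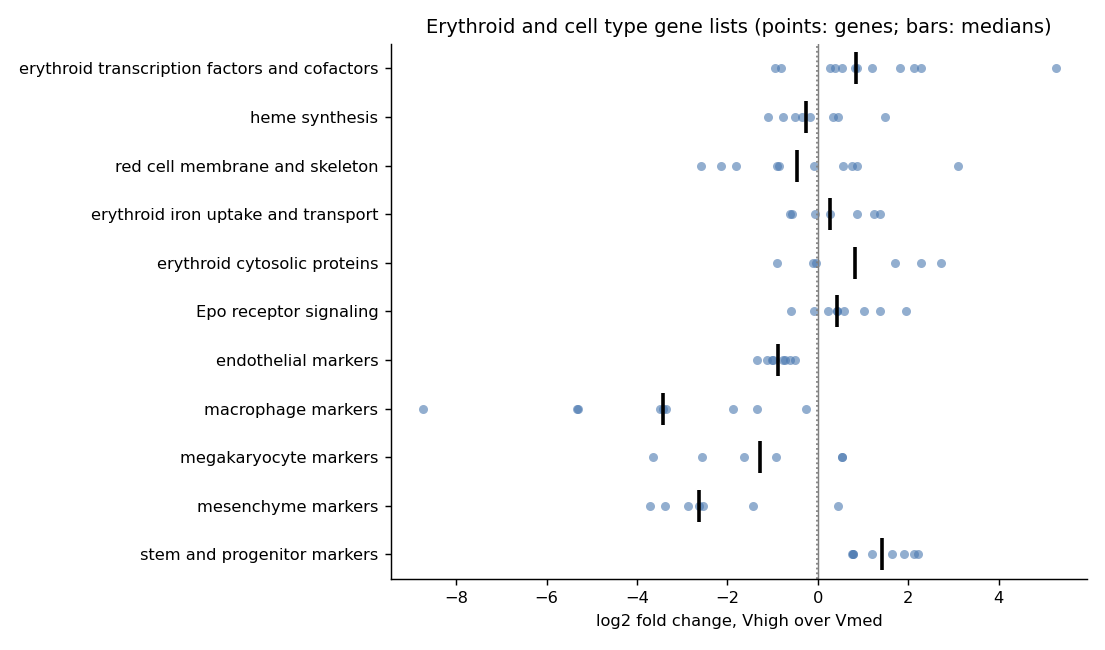
Log2 difference between Vhigh and Vmed (x axis) of each tested gene of the gene lists (y axis), with list medians as black bars, 0 as a grey line and the median of all tested genes as a dotted line. The median of erythroid transcription factors and cofactors lies at 0.85, and those of macrophage and mesenchyme markers at -3.42 and -2.63.

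Markers of other cells also differed in level between the fractions. All 9 macrophage markers had a difference below 0, 6 without overlap of the libraries (5.3% of all tested genes were lower in this way), and their summed level was 959 to 1739 CPM in Vmed and 121 to 513 CPM in Vhigh. Mesenchyme markers were below 0 in 6 of 7, with summed levels of 1202 to 4015 CPM in Vmed and 180 to 511 CPM in Vhigh. The 8 endothelial markers were all below 0, with a median of -0.89, and the 8 stem and progenitor markers all above 0, with a median of 1.42. Genes used in the sort are among them, Pecam1 in the first list and Kit and Gata2 in the second. The Venus gate followed the Gata2 reporter, so that the direction of Gata2 is not independent of the sort. Megakaryocyte markers were below 0 in 4 of 6 tested, with summed levels of 360 to 685 CPM in Vmed and 180 to 338 CPM in Vhigh. None of these markers was at 0 in all libraries. The summed macrophage, mesenchyme and megakaryocyte markers did not overlap between the fractions, and the part of such cells in the globin and Klf1 values was not tested.

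The genes whose log2 CPM followed the mean of Hba-x, Hbb-bh1 and Hbb-y most closely over the 6 libraries were Ranbp6 (Pearson r = 0.989), Fblim1 (0.984), Soat1 (0.983), Dap (0.978), Elovl5 (0.977), 5830417I10Rik (0.976), Msr1 (0.971) and Tram1l1 (0.967). They are the 8 highest among 12688 tested genes, members left out, over 6 points that share depth and fraction. Red cell lists and members together hold only 58 of the tested genes, so that their absence among these 8 carries no weight. Msr1 is a scavenger receptor of macrophages, and a link of the globins to macrophages was not tested. The mean includes Hba-x, with 1 count in Vhigh replicate 1, where summed globins were at 235 CPM, the highest of the Vhigh libraries. It was not taken without that library.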

How the data were processed

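Per the labels and the study's methods, RNA of sorted CD31+ckit+Vmed and CD31+ckit+Vhigh cells was amplified with a low-input SMARTer kit and sequenced in 50-base single reads. The submitters' processing notes name TopHat, Bowtie 1.1.2 and HTSeq. The deposited files hold raw, whole-number counts per gene that the authors made from reads aligned to 1 place. Gene models, strand setting and options are not given in the sources used here. Lines that name no gene (no feature, ambiguous, not aligned, not unique) were left out of library sizes: 92056 to 147772 reads per library were ambiguous and 10772745 to 24197566 alignments were not unique. Library totals were 8296831 to 12035206 counts, and 3 counts correspond to 0.249 to 0.362 CPM. Intervals and limits of 3 counts cover counting error only, since no molecular identifiers were used.

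Counts were filtered with filterByExpr, scaled by TMM and fitted by edgeR 4.0.16 (R 4.3.3; quasi-likelihood test, all 6 libraries, fraction as the only term, Benjamini-Hochberg adjustment, threshold 0.05). Log2 CPM used a prior count of 2. Single values were compared by an exact permutation test over 20 arrangements, two-sided. RPKM used exon-union lengths of GENCODE M21 (GRCm38); of 24062 symbols 22750 matched directly, 916 through older symbols and 396 not. Fits were tested on simulated counts. Genes changed there were mostly recovered at a small spread between libraries, but not at a spread near that of these data.

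Libraries were paired by replicate number, which the labels give without saying what it stands for. Deviations from the group means correlated at 0.21, 0.21 and 0.39 within the same number, and at -0.29 to -0.01 between different numbers. Because deviations within a group sum to 0, positive values within numbers bring negative ones between them. The contrast by itself therefore does not show that the libraries were paired. Other values also went with the number. The replicate 3 libraries had 1018872 (Vmed) and 898657 (Vhigh) counts of Rn45s, a ribosomal RNA, against 73614 to 160352 in the other libraries. Their reads in no gene were 1788695 (Vmed) and 1896093 (Vhigh), against 5806735 to 16947171. What the number stands for was not tested. A fit with the number as a block was an alternative. Others were other scalings, filters, depth thinning, DESeq2 1.42.0, the exact and the likelihood ratio test of edgeR, and leaving out each library. Leaving out Rn45s (ribosomal RNA) and using replicates 2 and 3 only were chosen after seeing the data. Genes named in a list are the 3 with the highest mean RPKM (1 of heme synthesis is not reported here); Gata1, Add2, Cpox, Tal1, Myb, Bcl11a and Sox6 were chosen after their values were seen. Members and lists were chosen with earlier results of these data known.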

Additional observations from a re-analysis of the deposited data

How the results depend on the processing

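Signs of all 6 member differences except Epor held under every alternative run, and no member passed the adjusted threshold under any. Adjusted p of Hba-x ranged from 0.446 to 1 and of Hbb-y from 0.274 to 1. Leaving out 1 library at a time, the log2 difference ranged from -4.64 to -2.78 for Hba-x, from -2.65 to -0.96 for Hbb-y, from 1.51 to 2.53 for Klf1 and from -2.14 to 0.049 for Epor, the last value without Vhigh replicate 1. With replicates 2 and 3 only, Hba-x was at -2.51.

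The count of genes called depended on the setting: 0 as reported, 37 with no filter, 14 with edgeR's exact test, 21 with its likelihood ratio test, 51 with DESeq2, 74 with the replicate block and the likelihood ratio test, and 0 to 1 leaving out 1 library (1 without Vhigh replicate 1). The cause was not tested. With the replicate block and the quasi-likelihood test 0 genes were called, the log2 difference was -4.27 for Hba-x and -1.81 for Hbb-y, and no call of a member changed.

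Directions also turned in other genes: leaving out 1 library gave a range for Abcb10 from -0.16 to 1.75, Prdx2 from -0.61 to 0.43, Cat from -0.56 to 0.39 and Bcl2l1 from -0.45 to 0.34, and with replicates 2 and 3 only Abcb10 was at -0.26 and Bcl2l1 at 0.27. Hba-a1, Hba-a2 and the ratio of Hba-x to them gave no value at 0 counts. Kit passed the adjusted threshold with the replicate block and likelihood ratio test (adjusted p = 0.0339). Leaving out 1 library also turned the sign of the list medians of heme synthesis, membrane (to 0.41), iron (to -0.016) and cytosolic genes (to -0.447), and with replicates 2 and 3 only those of membrane (to 0.078), iron (to -0.23) and cytosolic genes (to -0.183) turned. Other scalings turned none. Leaving out 1 library, the median ranged from 0.56 to 1.54 for erythroid transcription factors and from 0.19 to 1.39 for erythropoietin receptor signaling.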

Other observations

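Myb, a factor of immature blood progenitors that is switched off as red cells mature, was chosen after its values were seen. It was at 1.92, 1.29 and 6.15 CPM in Vmed and 80.05, 175 and 107 CPM in Vhigh, a log2 difference of 5.26 (SE 0.81) with an adjusted p of 0.664 in edgeR's quasi-likelihood test and 1.19e-06 in DESeq2, and of 1.19e-06 to 1 over all alternatives run.

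A pair of further embryonic or minor globins had a few reads. Hbq1b, a theta chain of the alpha cluster, had 1, 4 and 0 counts in Vmed and 32, 4 and 0 in Vhigh. Hbb-bh2 had 10 counts, all in Vhigh replicate 2.

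Among the 58 tested genes of the red cell lists, 19 (32.8%) had under 3 counts in Vhigh replicate 1, beside 0 to 6 in each of the other 5 libraries, and 31.5% of all tested genes did so in the same library. In all, 11 of the 58 were under 3 counts in that library alone, among them Hba-x, Epor, Zfpm1 (0 counts, against 9 to 175 elsewhere), Ppox (0, against 214 to 773) and Stat5a (0, against 15 to 568).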
